A study of Mus musculus with 51 samples.

Results

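The genes described here are Krt5, Krt14, Krt17, Trp63, Oxtr, Acta2, Myh11, Mylk, Cnn1 and Tagln, which mark the myoepithelial cells of the mammary gland (MG) or build the contractile apparatus that these cells share with smooth muscle. They were followed at every probe set that the array annotation assigns to 1 of these symbols alone. Of the 10 genes, 8 were measured, at 15 probe sets, among 11807 genes at 18003 probe sets with a single gene. No probe set carried the name Krt17, and the only one named for Tagln also names another gene, so no values are given for either. Where a gene had more than 1 probe set, counts of genes used its brightest.

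Whole MG RNA was hybridized to Affymetrix high-throughput mouse genome arrays, 1 array per mouse, for 43 mammary arrays of virgin BALB/c and C57BL/6 females. From 8 weeks of age the mice received sham irradiation or whole-body X-rays in 4 weekly exposures of 7.5 cGy (low dose, LD) or 1.8 Gy (high dose, HD), and the glands were taken 4 hr or 1 month after the last exposure. The tissue is the fourth pair of glands without the inguinal lymph nodes. BALB/c groups hold 3 sham, 4 LD and 4 HD arrays at 4 hr, and 3 sham, 2 LD and 4 HD arrays at 1 month. C57BL/6 groups hold 3 sham, 4 LD and 4 HD arrays at 4 hr, and 4 arrays of each kind at 1 month. The estrous cycle of the mice was not synchronized. All levels are deposited log2 values after robust multi-array averaging (RMA), so that 1 unit is a 2-fold difference, and levels of single members are not set against each other, since probe sets differ in brightness.

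The mammary epithelium consists of a luminal layer, which secretes milk, and a basal layer of myoepithelial cells around it. Myoepithelial cells carry the paired intermediate filament proteins keratin 5 and keratin 14 and depend on the transcription factor p63, as other basal epithelia do, but they also hold the actin and myosin machinery of smooth muscle. When oxytocin binds its receptor on them, calcium release activates myosin light chain kinase and the cells contract and eject milk. The contractile genes are transcribed in the smooth muscle of blood vessels as well, and keratins 5 and 14 in the skin, and in bulk tissue fewer cells of a type and less RNA per cell cannot be told apart.

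Transcription of smooth muscle genes is classically driven by serum response factor, which binds CArG boxes, and p63 acts on keratin genes of basal epithelia. To set a basal keratin gene beside contractile genes, the 250 bases before the start site listed by RefSeq (GRCm38.p6) are shown for Krt5, Acta2 and Cnn1. The windows are Krt5 at chr15:101712906-101713155 on the minus strand, Acta2 at chr19:34255374-34255623 on the minus strand and Cnn1 at chr9:22099003-22099252 on the plus strand. Capitals mark CArG-like elements, defined as CCNNNNNNGG in which at least 5 of the 6 inner bases are A or T, a pattern that reads alike on both strands.
Krt5: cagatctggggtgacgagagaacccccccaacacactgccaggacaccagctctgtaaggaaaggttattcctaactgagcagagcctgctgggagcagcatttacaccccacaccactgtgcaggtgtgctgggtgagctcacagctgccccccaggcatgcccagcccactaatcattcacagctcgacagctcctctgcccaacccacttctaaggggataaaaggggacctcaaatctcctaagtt
Acta2: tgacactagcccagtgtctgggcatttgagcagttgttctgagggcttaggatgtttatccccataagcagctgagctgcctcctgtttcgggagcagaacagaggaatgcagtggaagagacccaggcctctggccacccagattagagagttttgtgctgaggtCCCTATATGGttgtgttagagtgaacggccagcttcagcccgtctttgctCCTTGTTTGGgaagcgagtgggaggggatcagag
Cnn1: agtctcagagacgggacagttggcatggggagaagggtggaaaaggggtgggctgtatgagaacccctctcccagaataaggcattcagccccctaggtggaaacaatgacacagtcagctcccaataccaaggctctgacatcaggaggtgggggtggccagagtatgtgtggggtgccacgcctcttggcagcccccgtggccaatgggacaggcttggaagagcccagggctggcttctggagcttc
The Acta2 window held 2 such elements, which begin 84 and 34 bases before the listed start. The windows of Krt5, Cnn1, Krt14, Oxtr and Mylk held none, and 8.59% of all 32851 windows held at least 1. Set against the gene spans given below, the windows of Krt14, Oxtr and Mylk lie within the gene. Those of Acta2 and Cnn1 overlap the gene in part, and that of Krt5 lies outside it. The listed start is thus not always the outer end of the gene, and sequence before other starts was not searched. A match describes the letters only, and windows were at hand for 6 of the 10 genes.

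Across all mammary arrays, the brightest probe sets of the contractile genes lay in the upper part of the array, as did those of the keratins. Acta2, the smooth muscle actin gene on chromosome 19 from 34240336 to 34255585, was read by 1416454_s_at at 11.39 to 13.00, with a mean above 99.0% of all probe sets. Myh11 (smooth muscle myosin heavy chain, chromosome 16 from 14194527 to 14292188, 1448962_at) ranged over 8.61 to 9.94, Mylk (myosin light chain kinase, chromosome 16 from 34745199 to 35002436, 1425506_at) over 8.98 to 10.00, and Cnn1 (calponin 1, an actin-binding regulator of contraction, chromosome 9 from 22099221 to 22109221, 1417917_at) over 7.08 to 9.02. Krt5 (chromosome 15 from 101707069 to 101712905, 1424096_at) ranged over 6.44 to 9.64 and Krt14 (chromosome 11 from 100203162 to 100207510, 1423935_x_at) over 7.19 to 10.04. Trp63, which encodes p63 (chromosome 16 from 25683763 to 25892088, 1418158_at), ranged over 4.94 to 7.57 and Oxtr, the oxytocin receptor gene (chromosome 6 from 112473683 to 112491035, 1426000_at), over 5.19 to 6.85. The SD over all 43 arrays was 0.70 for Krt5, 0.58 for Krt14 and 0.72 for Trp63, but 0.23 to 0.36 for the 5 other genes. The letters in 1416454_s_at and 1423935_x_at mark probe sets that can also bind transcripts of related genes, here other actins or keratins.

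Luminal genes differed widely in level, with medians over the mammary arrays from 4.20 for Pgr to 11.8 for Krt18, and 10.9 for Epcam. The medians of the milk protein genes Csn2, Lalba and Wap also lay below 5, but those of Csn3 and Ltf were 10.2 and 9.85. Of 15 epidermal and hair genes, 14 had a median below 5, and the list mean lay above that of the median array by over 1 log2 unit on 1 array only, BALB/c LD 4 hr replicate 1 (by 1.99). Skeletal muscle transcripts lay by 6.38 above the median array on BALB/c HD 4 hr replicate 1, by 4.78 on C57BL/6 sham 1 month replicate 2, by 2.74 on BALB/c HD 1 month replicate 3 and by 2.07 on BALB/c sham 4 hr replicate 1, and B cell transcripts by 3.20 on BALB/c HD 1 month replicate 1. These last 5 arrays were left out in 1 alternative. The arrays of each strain lay on a plate of their own, so strain and plate cannot be told apart, and within a strain sham and irradiated arrays lay mostly in different plate columns. At 4 hr the HD arrays lay in columns 6 to 8 and the LD arrays in columns 9 to 12 in both strains, so plate position and dose cannot be told apart there either.

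**Figure D1:**
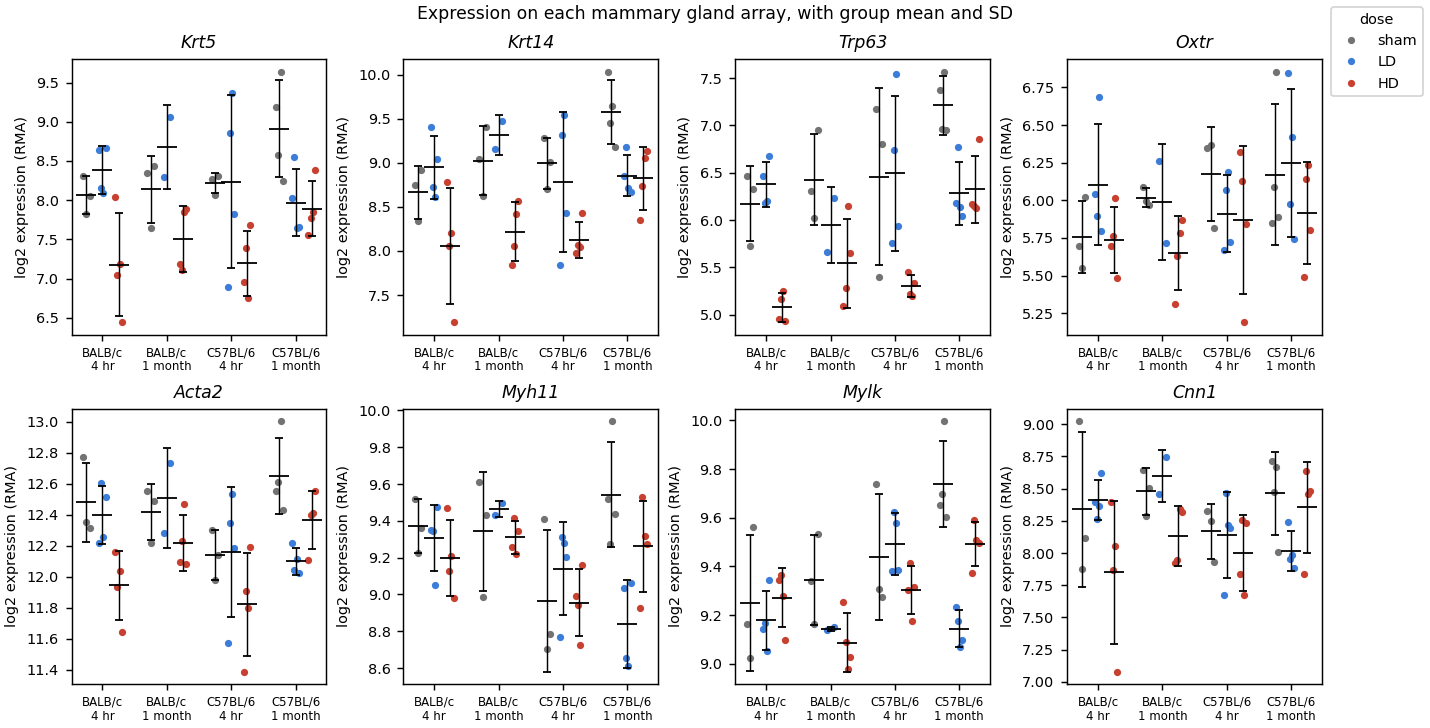
Each point is 1 mammary array, with RMA log2 expression of the brightest probe set on the vertical axis and the 4 combinations of strain and time on the horizontal axis, in the order sham, LD, HD within each. Horizontal bars are group means and whiskers are SD (2 to 4 arrays). Trp63 on the 4 BALB/c HD arrays at 4 hr sits between 4.94 and 5.25, below all other BALB/c 4 hr arrays.

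At 4 hr after the last HD exposure, the basal transcription factor gene Trp63 was the member that fell in BALB/c glands, to 0.469 of the sham level. Trp63 had log2 levels of 4.96, 5.16, 5.25 and 4.94 on HD arrays, against 6.46, 5.72 and 6.33 on sham arrays. All HD arrays lay below all sham arrays. The HD values lay near 5, the mean below which probe sets were filtered as dim in 1 alternative. The part of background signal in them was not tested. The group means were 5.08 ± 0.16 after HD (SD, n = 4) and 6.17 ± 0.39 after sham (SD, n = 3), a log2 fold change of −1.09 (SE 0.25, adjusted p = 0.0215 from limma, adjusted over all probe sets). It was the only 1 of the 8 genes called at an adjusted p under 0.05, where 3.11% of all genes were called lower and 2.79% higher. The call was lost without HD replicate 4 (adjusted p = 0.0591), sham replicate 1 (adjusted p = 0.0907) or sham replicate 3 (adjusted p = 0.0535). It was also lost with plate column as a covariate (log2 fold change −1.35, adjusted p = 0.191) and without the arrays that held transcripts of another tissue (−0.91, adjusted p = 0.0682).

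The basal keratin genes Krt5 and Krt14 also had negative log2 fold changes, smaller in size than that of Trp63, but were not called. Krt5 levels were 8.05, 7.04, 7.18 and 6.44 on BALB/c HD arrays at 4 hr, against 8.31, 7.83 and 8.05 on sham arrays. Replicate 1, the array with skeletal muscle transcripts, was the highest of the HD arrays and replicate 4 the lowest, and the groups overlapped. The log2 fold change was −0.88 (SE 0.31, 95% interval −1.54 to −0.23, adjusted p = 0.107 from limma). Krt14 levels were 8.78, 8.06, 8.20 and 7.19 on the same HD arrays, against 8.75, 8.34 and 8.92 on sham arrays, with the lowest value again on HD replicate 4 (log2 fold change −0.61, SE 0.29, adjusted p = 0.249 from limma). Without HD replicate 1, Krt5 and Acta2 were called beside Trp63.

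Among the contractile genes of BALB/c glands at 4 hr, Acta2 had the lowest HD values relative to sham. Acta2 levels were 12.16, 11.93, 12.04 and 11.64 on HD arrays, against 12.77, 12.36 and 12.31 on sham arrays. The groups did not overlap, and the log2 fold change was −0.54 (SE 0.16, adjusted p = 0.0549 from limma), just outside the threshold. Acta2 was called with array weights and when dim probe sets were left out. Cnn1 had a log2 fold change of −0.49 (SE 0.26) and Myh11 of −0.17 (SE 0.14), while Mylk at 0.02 (SE 0.12) and Oxtr at −0.02 (SE 0.20) lay close to 0. Over the 8 genes, 7 had a negative log2 fold change with a median of −0.51, against a median of −0.0039 over all genes, and 3 passed an unadjusted p of 0.05. The mean log2 fold change was −0.75 over both keratins and −0.29 over the 4 contractile genes, a difference that was not tested.

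In C57BL/6 glands at 4 hr after HD, the same 3 basal genes had the largest negative log2 fold changes of the 8, and none of them was called. Trp63 levels were 5.45, 5.22, 5.20 and 5.34 on HD arrays, against 7.17, 5.40 and 6.80 on sham arrays. The HD arrays lay close together, not far above the dim limit of 5. Sham replicate 2 lay among them, so the groups overlapped (log2 fold change −1.16, SE 0.37, adjusted p = 0.167 from limma). Without sham replicate 2, Trp63 was called and was the only 1 of the 8. Krt5 levels were 6.96, 7.38, 6.75 and 7.68 on HD arrays, against 8.27, 8.07 and 8.31 on sham arrays. All HD values lay below all sham values (−1.02, SE 0.42, adjusted p = 0.302 from limma). Krt14 levels were 7.97, 8.07, 8.05 and 8.43 on HD arrays, against 9.28, 8.70 and 9.01 on sham arrays, again without overlap (−0.87, SE 0.30, adjusted p = 0.202 from limma).

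The 4 contractile genes of C57BL/6 glands had log2 fold changes between −0.32 for Acta2 and −0.01 for Myh11 at 4 hr after HD, with a mean of −0.16 against −0.95 for both keratins. All 8 genes were on the negative side (median −0.31, against −0.0071 over all genes), 3 at an unadjusted p under 0.05 and 0 at an adjusted p under 0.05 from limma, where 0.44% of all genes were called lower and 0.432% higher. The response to HD at 4 hr was not shown to differ between the strains for any of the 8 genes (0 called in limma's test of the difference, 0 at an unadjusted p under 0.05, with 0% of all genes called in either direction). The difference of the 2 responses, BALB/c minus C57BL/6, was 0.14 for Krt5 (95% interval −0.99 to 1.27) and 0.06 for Trp63 (−0.90 to 1.03).

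The study's methods used a rule on unadjusted p. It asked for a log2 fold change above 0.58 in size, at an unadjusted p below 0.01 for HD and below 0.1 for LD. Here and below the rule was applied to the limma fits made here, so its picks and shares are not the study's published lists, which differ in number. The study states 4 arrays per group, where some groups here hold 2 or 3. At 4 hr after HD the rule picked Trp63 in BALB/c, where it picked 2.93% of all genes as lower and 1.3% as higher. In C57BL/6 it picked Krt14 and Trp63, with 1.57% of all genes as lower and 0.618% as higher. At 1 month after HD it picked Trp63 in BALB/c (1.41% of all genes lower, 0.33% higher). It picked none of the 8 in C57BL/6 at the brightest probe sets (1.25% lower, 0.966% higher). Of the 15 probe sets, 1 passed the rule there, Krt14 at 1460347_at (mean 8.00 after HD, 8.86 after sham). All of these picks were lower after HD and belong to the basal genes.

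**Figure D2:**
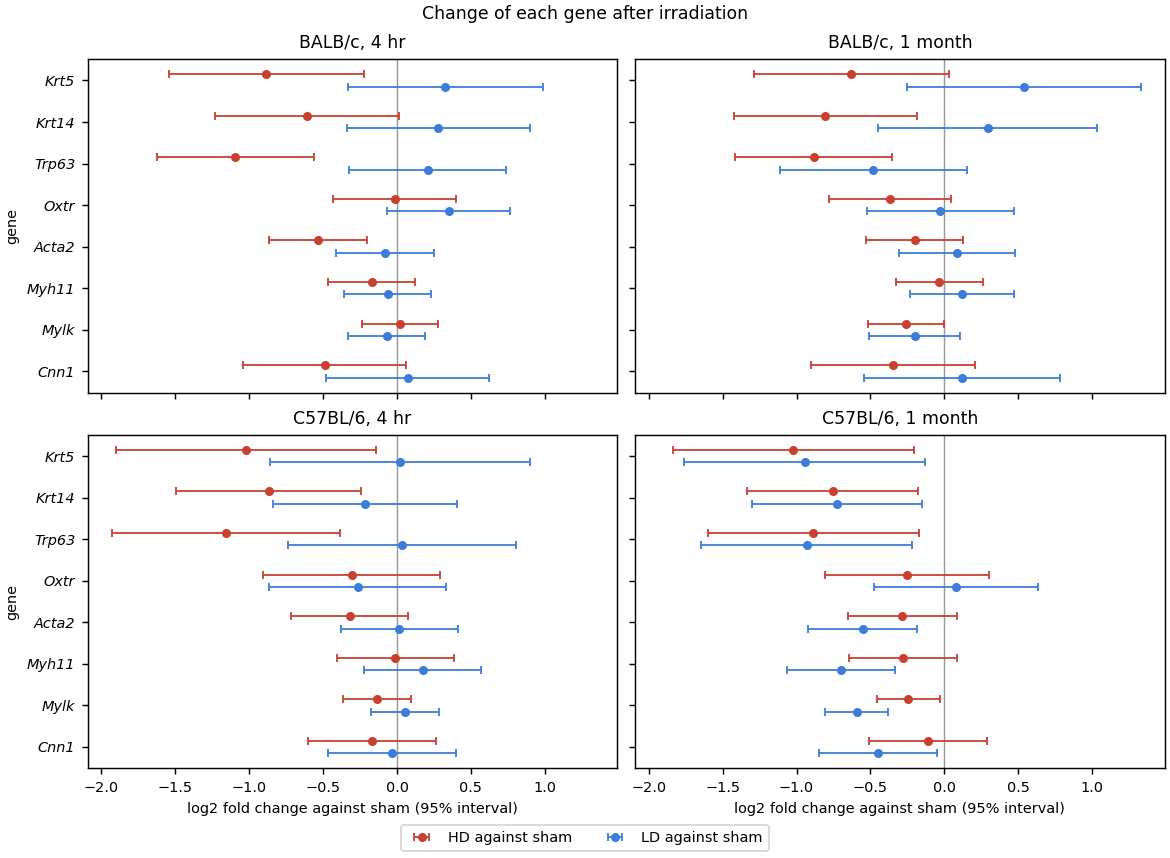
Points are log2 fold changes against sham on the horizontal axis with 95% intervals from limma, HD above LD for each gene, in 1 panel per strain and time. The intervals of Trp63 after HD lie below 0 in all 4 panels, and in C57BL/6 at 1 month the LD intervals of 7 of the 8 genes lie below 0.

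The HD arrays were also set against the LD arrays of the same time, which received the same number of exposures. In BALB/c glands at 4 hr, Krt5 and Trp63 were lower after HD than after LD. Trp63 levels were 4.96, 5.16, 5.25 and 4.94 on HD arrays, against 6.46, 6.18, 6.20 and 6.68 on LD arrays. The groups were wide apart (log2 fold change −1.30, SE 0.23, adjusted p = 0.00298 from limma), and the call held without any single array, with a highest adjusted p of 0.0144. Krt5 levels were 8.05, 7.04, 7.18 and 6.44 on HD arrays, against 8.64, 8.16, 8.09 and 8.67 on LD arrays. The highest HD array lay just below the lowest LD array (−1.21, SE 0.29, adjusted p = 0.0186 from limma).

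These were 2 of 8 genes, where 5.17% of all genes were called lower and 2.71% higher, and 7 of the 8 log2 fold changes were negative (median −0.51, against 0.018 over all genes). The call of Krt5 was lost without HD replicate 4 (adjusted p = 0.0585), LD replicate 1 (adjusted p = 0.0575) or LD replicate 4 (adjusted p = 0.0623). With plate column as a covariate neither gene was called. LD replicate 1 was the array with the most epidermal transcripts. Without it and the arrays that held transcripts of another tissue, a choice made after seeing the data, Krt5 stood at −1.42 (adjusted p = 0.0133) and Trp63 at −1.24 (adjusted p = 0.0127), and Acta2 was called as well.

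Krt14 stood at −0.89 (SE 0.27, adjusted p = 0.0552 from limma) at its brightest probe set in the same comparison and at −0.89 (SE 0.26, adjusted p = 0.048 from limma) at its other probe set, 1460347_at. The second set gave 7.93, 7.11, 7.37 and 6.997 on HD arrays, against 8.89, 7.99, 7.88 and 8.23 on LD arrays, where HD replicate 1 lay between the lowest LD array and the others and the 3 other HD arrays lay below all LD arrays. In C57BL/6 glands at 4 hr, all 8 genes were on the negative side of HD against LD (median −0.26), with 3 at an unadjusted p under 0.05 and 0 called by limma, where 1.06% of all genes were called lower and 0.517% higher. Trp63 there had 5.45, 5.22, 5.20 and 5.34 on HD arrays, against 5.75, 6.74, 7.54 and 5.94 on LD arrays, without overlap (−1.19, SE 0.34, adjusted p = 0.0797 from limma). Without LD replicate 1, the lowest array of its group in all 8 genes at the brightest probe set, the 3 genes Krt5, Krt14 and Trp63 were called.

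At 4 hr after LD itself, none of the 8 genes differed from sham beyond its error in either strain, with 0 called by limma and 0 at an unadjusted p under 0.05 in both, where 0% of all genes were called. The study's rule picked none of the 8 either. It picked 0.838% of all genes as lower and 0.678% as higher in BALB/c, and 0.229% as lower and 0.127% as higher in C57BL/6. In BALB/c the log2 fold changes ran from −0.08 for Acta2 to 0.35 for Oxtr, with a 95% interval of −0.33 to 0.99 for Krt5 and −0.32 to 0.74 for Trp63. In C57BL/6 they ran from −0.26 for Oxtr to 0.17 for Myh11, with −0.86 to 0.90 for Krt5 and −0.74 to 0.80 for Trp63.

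At 1 month after HD, the basal genes still had the most negative values of the 8 in both strains, though none was called. In BALB/c glands Trp63 had 5.09, 5.28, 6.15 and 5.65 on HD arrays, against 6.31, 6.02 and 6.96 on sham arrays. HD replicate 3, which held skeletal muscle transcripts, lay above the lowest sham array (log2 fold change −0.88, SE 0.25, adjusted p = 0.196 from limma). Krt14 had 7.84, 8.05, 8.41 and 8.57 on HD arrays, against 9.04, 8.63 and 9.41 on sham arrays, without overlap (−0.81, SE 0.29, adjusted p = 0.331 from limma). Krt5 stood at −0.63 (SE 0.31). All 8 genes were negative (median −0.36, against 0.021 over all genes), 3 at an unadjusted p under 0.05 and 0 called by limma, where 0.00847% of all genes were called lower and as many higher.

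In C57BL/6 glands at 1 month after HD, Trp63 had 6.17, 6.15, 6.12 and 6.86 on HD arrays, against 7.37, 6.96, 7.57 and 6.95 on sham arrays, without overlap (log2 fold change −0.89, SE 0.34, adjusted p = 0.18 from limma). Krt5 had 7.55, 7.77, 7.85 and 8.38 on HD arrays, against 9.18, 8.58, 9.64 and 8.25 on sham arrays, where the highest HD array lay above the lowest sham array (−1.02, SE 0.39, adjusted p = 0.175 from limma). Krt14 stood at −0.76 (SE 0.28) without overlap. The 4 contractile genes lay between −0.28 and −0.11. All 8 genes were negative (median −0.28), 4 at an unadjusted p under 0.05 and 0 called, where 0.525% of all genes were called lower and 0.457% higher.

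At 1 month after LD in C57BL/6 glands, 3 of the 4 contractile genes lay below sham without overlap, though none was called. Mylk levels were 9.23, 9.18, 9.07 and 9.10 on LD arrays, against 9.65, 9.70, 10.00 and 9.60 on sham arrays. The groups lay apart (log2 fold change −0.59, SE 0.10, unadjusted p = 9.53e-06, adjusted p = 0.086 from limma), without passing the adjusted threshold. Myh11 levels were 9.03, 8.65, 8.61 and 9.06 on LD arrays, against 9.52, 9.27, 9.94 and 9.44 on sham arrays, also apart (−0.70, SE 0.18, adjusted p = 0.175 from limma). Acta2 levels were 12.22, 12.04, 12.11 and 12.03 on LD arrays, against 12.55, 12.61, 13.00 and 12.43 on sham arrays, again apart (−0.55, SE 0.18, adjusted p = 0.221 from limma).

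The basal genes had similar values in that comparison. Trp63 levels were 6.18, 6.77, 6.13 and 6.04 on LD arrays, against 7.37, 6.96, 7.57 and 6.95 on sham arrays, without overlap (log2 fold change −0.93, SE 0.34, adjusted p = 0.28 from limma). Krt5 stood at −0.95 (SE 0.39), Krt14 at −0.73 (SE 0.28) and Cnn1 at −0.45 (SE 0.19), and Oxtr at 0.08 (SE 0.27). Of the 8 genes, 7 had a negative log2 fold change (median −0.65, against 0.00084 over all genes) and 7 had an unadjusted p under 0.05. The count called by limma was 0, where 0% of all genes were called, although 1493 of the 11807 genes had an unadjusted p under 0.05. With all mammary arrays in 1 fit, Mylk was called. The study's rule picked 5 of the 8, namely Krt5, Krt14, Trp63, Myh11 and Mylk, all lower. It picked 1.5% of all genes as lower and 0.457% as higher.

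Against sham glands at 4 hr, C57BL/6 sham glands at 1 month had positive log2 fold changes for 7 of the 8 genes (median 0.54, against 0.0099 over all genes), 3 at an unadjusted p under 0.05 and 0 called by limma, where 0.618% of all genes were called higher and 2.42% lower. Myh11 had 9.52, 9.27, 9.94 and 9.44 on sham arrays at 1 month, against 9.41, 8.70 and 8.79 on sham arrays at 4 hr (0.58, SE 0.19, adjusted p = 0.101 from limma). Without 4 hr sham replicate 1, the array with the highest Myh11 of its group, Myh11 and Mylk were called, and with all mammary arrays in 1 fit Myh11 was called. Between LD glands at 1 month and at 4 hr, by contrast, 6 of the 8 values were negative (median −0.17), 1 at an unadjusted p under 0.05 (Mylk, −0.35, SE 0.10) and 0 called, where 0% of all genes were called. Adipocyte genes had a list mean of 11.33 in C57BL/6 sham glands at 1 month, the lowest of the 12 groups, and of 11.63 in sham glands at 4 hr, and their part in these values was not tested. The C57BL/6 sham array at 1 month with skeletal muscle transcripts, replicate 2, lay between the other sham arrays of its group in Krt5, Acta2 and Mylk and was the lowest of them in Myh11.

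In BALB/c glands at 1 month after LD, which has 2 arrays, 3 of the 8 values were negative (median 0.10). Of the 8, 0 were called or passed an unadjusted p of 0.05, where 0% of all genes were called. The study's rule picked none of the 8 but 0.534% of all genes as lower and 0.593% as higher. The study itself lists KRT17 in its signature of genes raised in BALB/c at this time after LD. That member had no named probe set here, so its change could not be examined. The log2 fold change of Krt5 was 0.54 (SE 0.375) and that of Trp63 −0.48 (SE 0.30). Krt5 levels were 8.30 and 9.06 on LD arrays, against 8.34, 7.65 and 8.43 on sham arrays, so that the groups overlapped. The difference between the strains in the response to LD at 1 month, BALB/c minus C57BL/6, was 1.48 for Krt5 (SE 0.60, adjusted p = 0.467 from limma), 0.82 for Myh11 (SE 0.26, adjusted p = 0.367) and 0.64 for Acta2 (SE 0.27, adjusted p = 0.519). It passed an unadjusted p of 0.05 for 5 of the 8 genes and was called for 0, where 0% of all genes were called.

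Set against LD at 1 month, HD glands of C57BL/6 mice had a Mylk level of 9.37, 9.59, 9.51 and 9.49, against 9.23, 9.18, 9.07 and 9.10 on LD arrays, without overlap (log2 fold change 0.35, SE 0.10, adjusted p = 0.34 from limma). The 4 contractile genes were on the positive side there, between 0.27 and 0.42, while Krt5 was at −0.08, Krt14 at −0.03 and Trp63 at 0.04. In BALB/c glands, HD against LD at 1 month gave −1.17 for Krt5 (SE 0.36, adjusted p = 0.231) and −1.10 for Krt14 (SE 0.33, adjusted p = 0.231), both without overlap. None of these was called by limma, with 2 of the 8 genes at an unadjusted p under 0.05 in each strain, where at most 0.00847% of all genes were called in either direction.

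Between 1 month and 4 hr after HD, C57BL/6 glands had positive values for all 8 genes (median 0.45, 3 at an unadjusted p under 0.05 and 0 called by limma, where 0.788% of all genes were called higher and 0.483% lower). Trp63 had 6.17, 6.15, 6.12 and 6.86 at 1 month, against 5.45, 5.22, 5.20 and 5.34 at 4 hr, without overlap (1.02, SE 0.34, adjusted p = 0.128 from limma). BALB/c glands had positive values for 6 of the 8 (median 0.22, 0 at an unadjusted p under 0.05 and 0 called, where 1.09% of all genes were called higher and 1.18% lower), with 0.47 for Trp63 (SE 0.23) and 0.28 for Acta2 (SE 0.14). C57BL/6 sham glands had values on the same side between the times, and BALB/c sham glands had a median of 0.12 (6 of the 8 positive, 0 called, 0 at an unadjusted p under 0.05).

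Sham glands of the strains, compared within each time and averaged, did not differ beyond the threshold for any of the 8 genes (0 called, 3 at an unadjusted p under 0.05), where 4.56% of all genes were called lower and 4.28% higher in BALB/c. The values, BALB/c minus C57BL/6, were −0.46 for Krt5 (SE 0.21, adjusted p = 0.202 from limma), −0.44 for Krt14 (SE 0.17, adjusted p = 0.127), −0.54 for Trp63 (SE 0.27) and −0.29 for Mylk (SE 0.12), and 0.05 to 0.10 for Acta2, Myh11 and Cnn1. For Acta2 and Myh11 this average joins times with opposite signs. Acta2 means were 12.48 in BALB/c and 12.14 in C57BL/6 at 4 hr, and 12.42 and 12.65 at 1 month. Those of Myh11 were 9.37 and 8.97 at 4 hr, and 9.34 and 9.54 at 1 month. With replicate number as a block, Krt5 and Krt14 were called. With all mammary arrays in 1 fit, Mylk was called.

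Most other genes listed as basal and myoepithelial, not all of them confined to that layer, were on the negative side with the members after HD. Few of them were called. Of 22 measured basal and myoepithelial genes outside the members, 18 had a negative log2 fold change in BALB/c glands at 4 hr (median −0.31), with 0 called lower and 1, the caveolin gene Cav1, called higher (0.39, SE 0.089, adjusted p = 0.0211 from limma). Sox9, a transcription factor of mammary progenitors, stood at −0.89 (SE 0.26, adjusted p = 0.0588). The study found its protein in nuclei of both luminal and myoepithelial cells. Against LD, 4 of the 22 were called lower and 0 higher (median −0.52), namely Sox9, Sfn, the transcription factor gene Snai2 (−0.55, SE 0.12, adjusted p = 0.0106) and the growth factor receptor gene Fgfr2 (−0.95, SE 0.22, adjusted p = 0.0171). Of the 22, 19 were negative in C57BL/6 glands at 4 hr after HD (median −0.25, 0 called) and at 1 month after HD (median −0.38, 0 called).

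Of 23 luminal genes, 13 were called lower and 0 higher in BALB/c glands at 4 hr after HD (median −1.22), with Cd24a, an epithelial surface protein gene, at −1.43 (SE 0.20, adjusted p = 0.00078 from limma) and Krt8, the luminal keratin gene, at −1.94 (SE 0.32, adjusted p = 0.00332). Of the 23, 2 were called in C57BL/6 glands, Elf5 (−2.55, SE 0.45), the alveolar transcription factor gene, and Kit (−1.31, SE 0.31), a receptor of luminal progenitors, with a median of −0.62. On the same BALB/c arrays the luminal list mean was 6.76 to 7.90 after HD and 8.22 to 8.55 after sham, with the lowest value on HD replicate 4. That array was also the lowest of the HD arrays in each of the 8 members at the brightest probe set, Trp63 included. After LD at 1 month in C57BL/6, the luminal median was −0.04 with 0 called, beside the median of −0.65 over the 8 members.

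Genes of the contractile apparatus outside the members gave a median of −0.22 over 16 genes in BALB/c glands at 4 hr after HD, with 2 called lower and 0 higher. These were Pdlim7 (−0.87, SE 0.18, adjusted p = 0.015 from limma), which encodes an actin-associated LIM protein, and Myl9 (−0.40, SE 0.096, adjusted p = 0.0239), the regulatory light chain of smooth muscle myosin and the substrate of Mylk. Of 16 genes of oxytocin receptor signalling to myosin, 2 were called lower, Myl9 and Itpr3 (−0.75, SE 0.151, adjusted p = 0.0118), a calcium release channel gene, and the median was −0.03. Of 10 regulators of the serum response factor and myocardin system, Klf4 was called higher (0.62, SE 0.17, adjusted p = 0.044) and 0 were called lower (median −0.0034). In C57BL/6 glands at 1 month after LD, 13 of the 16 contractile apparatus genes were negative (median −0.42, 0 called), with Tpm2, a tropomyosin gene, at −0.55 (SE 0.16, adjusted p = 0.193).

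Vascular mural cells are a further source of contractile transcripts. Of 13 of their markers, 2 were called higher, Mcam (0.83, SE 0.155, adjusted p = 0.00793 from limma) and Itga7 (0.67, SE 0.14, adjusted p = 0.015), and 1 lower, the pericyte growth factor receptor gene Pdgfrb (−0.65, SE 0.14, adjusted p = 0.0152), in BALB/c glands at 4 hr after HD, with a median of 0.24 and 4 of the 13 values negative. The mean of the mural list ranged over 7.46 to 7.64 on HD arrays and 7.33 to 7.44 on sham arrays. It ranged in C57BL/6 glands at 1 month over 7.28 to 7.52 after LD and 7.27 to 7.46 after sham. Skeletal muscle genes had a median of −1.11 in that comparison, with a list mean of 4.72 to 6.04 after LD and 4.67 to 9.61 after sham, and mitosis genes a median of −0.86. Adipocyte list means were 11.80 to 11.95 after HD and 11.46 to 11.54 after sham in BALB/c glands at 4 hr, without overlap. At 1 month in C57BL/6 they were 11.44 to 11.70 after LD and 11.11 to 11.54 after sham. The part of these lists in the members' values was not tested.

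**Figure D3:**
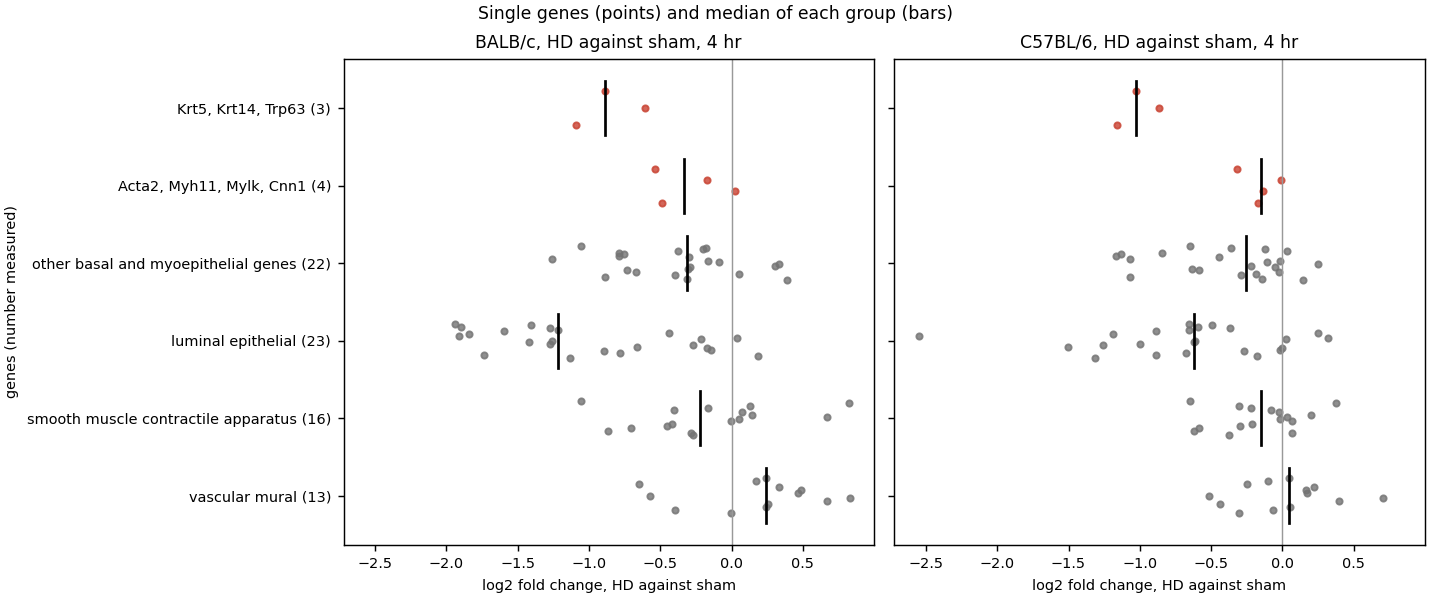
Each point is the log2 fold change of 1 gene between HD and sham glands at 4 hr, for BALB/c on the left and C57BL/6 on the right, and each black bar is the median of its group of genes. In BALB/c the luminal median is −1.22, that of the other basal genes −0.31 and that of the mural genes 0.24.

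Within groups, the correlations between members from mouse to mouse were all positive and differed widely in strength. Deviations from the group means over the 43 mammary arrays correlated at r = 0.89 between Krt5 and Krt14, at 0.71 between Krt5 and Trp63 and at 0.75 between Krt5 and Acta2, but at 0.36 between Trp63 and Cnn1 and at 0.40 both between Acta2 and Mylk and between Mylk and Cnn1. Oxtr had an r of 0.15 to 0.40 with the 7 others, and of 0.50 with Cnn1 without the 5 arrays with transcripts of another tissue. The mean of Krt5 and Krt14 correlated with the mean of Acta2, Myh11 and Cnn1 at r = 0.77 (Spearman's rho 0.74), at 0.80 within the 20 BALB/c arrays and at 0.75 within the 23 C57BL/6 arrays. Leaving out the 2 arrays farthest from the median in the keratins gave r = 0.74, and leaving out the 5 arrays with transcripts of another tissue gave 0.76. These correlations describe arrays that share 12 groups and the epithelial content of each sample, and they were not tested.

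**Figure D4:**
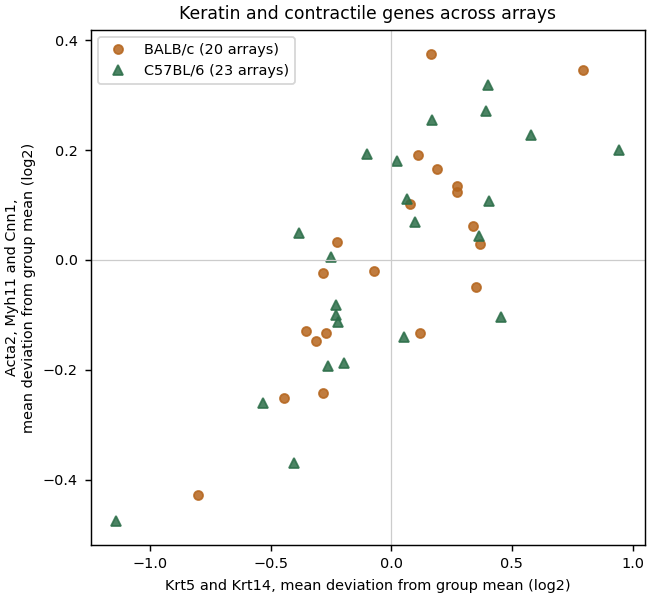
Each point is 1 of 43 mammary arrays, with the mean deviation of Krt5 and Krt14 from their group means on the horizontal axis and that of Acta2, Myh11 and Cnn1 on the vertical axis, both in log2 units. The deviations run together in both strains (r = 0.80 in BALB/c and 0.75 in C57BL/6).

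The 6 other genes most like the mean of Krt5 and Krt14 over these deviations were Serpinb5 (r = 0.90), Esrp1 (0.88), Dsp (0.88), Fxyd3 (0.87), Bex3 (0.87) and Wfdc18 (0.86). Serpinb5 encodes maspin, Esrp1 an epithelial splicing regulator and Dsp the desmosomal protein desmoplakin. The 6 most like the mean of Acta2, Myh11 and Cnn1 were Tpm2 (0.84), Fxyd3 (0.74), Eppk1 (0.74), Serpinb5 (0.73), Bex3 (0.72) and Perp (0.71), where Tpm2 is a tropomyosin gene and Eppk1 and Perp encode epithelial junction and cytoskeletal proteins. The luminal list mean had an r of 0.64 with the keratins and 0.56 with the contractile genes. Lists of cells outside the epithelium were mixed. The r with the keratins and with the contractile genes was −0.41 and −0.17 for vascular mural and −0.47 and −0.32 for endothelial genes. It was −0.42 and −0.38 for adipocyte, −0.41 and −0.28 for macrophage and −0.18 and −0.11 for B cell genes. Fibroblast and matrix genes had −0.08 and 0.14, and skeletal muscle genes 0.17 and 0.25. Without the 5 arrays with transcripts of another tissue, skeletal muscle genes had −0.35 and −0.14.

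The further probe sets of the members gave other readings where they were dim. The 2 probe sets of Krt14 followed each other over the arrays (r = 0.89), and those of Mylk did so less (r = 0.59 for 1425505_at and 0.65 for 1425504_at). The other probe sets of Trp63, with mean levels of 4.85 and 4.69, had an r of 0.32 and 0.33 with the brightest, and in BALB/c glands at 4 hr after HD they stood at −0.08 (SE 0.12) and 0.04 (SE 0.14). The calls of Trp63 therefore rest on 1 probe set. The second probe sets of Acta2 (mean level 4.29) and Myh11 (4.61) had an r of 0.26 and 0.03 with the brightest. In C57BL/6 glands at 1 month after LD, Mylk at 1425505_at had 8.80, 8.33, 8.38 and 8.27 on LD arrays, against 9.15, 8.94, 9.37 and 8.88 on sham arrays (−0.64, SE 0.15, adjusted p = 0.142 from limma), without overlap.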

How the data were processed

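RNA of mammary glands (43 arrays) and blood (8 arrays) was measured on 51 arrays, each of 1 mouse per the labels. The deposited values are log2 intensities that the authors made with RMA, and the submitters' processing notes name RMA and limma, with versions not given in the sources used here. The number of arrays per group (2 to 4) limits the precision. Of 22626 probe sets, 287 named several genes, 4336 had no name and 18003 named 1 gene.

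Each strain was fitted with limma 3.58.1 in R 4.3.3 on group means of dose and time, with no covariate and no filter on dim probe sets. Contrasts between strains used arrays of both. P-values were Benjamini-Hochberg adjusted over all probe sets and called below 0.05, in 23 comparisons. Figures and promoter windows were made with Python 3.11. The fits were tested on simulated data. Replicates are separate mice. Deviations of arrays that share a replicate number had a mean correlation of 0.0145 for BALB/c (other pairs −0.0052), and of 0.0124 for C57BL/6 (other pairs −0.0041), so arrays were not paired.

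The members and the 15 other gene lists were chosen with earlier results of these data known. All members were named, with at most the 2 genes of smallest p from each other list in a comparison. Sox9, Sfn and Pdgfrb were named besides, after their values were seen, because few genes were called. Luminal genes given only by their level, such as Krt18 and Epcam, are also outside this rule. For likeness, Tagln was left out of the contractile mean because it had no value. Alternatives were array weights, plate column as a covariate, replicate number as a block, median centring, a filter on probe sets with a mean below 5, all mammary arrays in 1 fit, other probe sets, each array left out in turn, and leaving out arrays with a list of another tissue over 2 log2 units above the median array.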

Additional observations from a re-analysis of the deposited data

Results flagged for a closer look

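In 5 of 120 sets of 4 arrays of 1 group at 1 probe set, a single array lay far from the others by Dixon's criterion, which flags about 1 in 20 sets by chance. Trp63 at 1418158_at was 6.86 on C57BL/6 HD 1 month replicate 4, against 6.12 to 6.17 on the other arrays of that group. The 4 further arrays concern dim probe sets. Trp63 at 1451876_a_at was 5.03 on BALB/c LD 4 hr replicate 1, the array with the most epidermal transcripts, against 4.78 to 4.81 on the others. Acta2 at 1456658_at was 4.42 on C57BL/6 HD 1 month replicate 3, against 4.18 to 4.21 on the others, and 4.90 on BALB/c LD 4 hr replicate 4, against 4.13 to 4.26. Myh11 at 1418122_at was 4.75 on C57BL/6 LD 1 month replicate 3, against 4.48 to 4.52 on the others.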

How the results depend on the processing

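For HD against sham in BALB/c at 4 hr, where 1 member was called, 2 were called with array weights and 2 without dim probe sets (Trp63 and Acta2 each time), and 0 with plate column as a covariate, 0 without arrays with transcripts of another tissue and 0 at the next brightest probe sets, where Trp63 stood at −0.08 (adjusted p = 0.768). Leaving out 1 array gave 0 to 3, with 3 without HD replicate 1, and Trp63 ranged over −1.32 to −0.95. For HD against LD in BALB/c at 4 hr, where 2 were called, 4 were called with array weights, 4 without dim probe sets and 5 without arrays of another tissue, against 0 with plate column (Krt5 −0.99, adjusted p = 0.203; Trp63 −1.12, adjusted p = 0.0817). Leaving out 1 array gave 1 to 4, and Krt5 ranged over −1.50 to −0.97. At the next probe set Trp63 stood at −0.27 (adjusted p = 0.14). Why these counts moved was not tested.

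Where 0 were called, 1 was called with all mammary arrays in 1 fit for C57BL/6 LD against sham at 1 month (Mylk), HD against LD at 4 hr (Trp63), sham glands at 1 month against 4 hr (Myh11) and the strain difference in sham glands (Mylk). Leaving out 1 array gave 0 to 3 for C57BL/6 HD against LD at 4 hr, 0 to 2 for C57BL/6 sham glands at 1 month against 4 hr, 0 to 1 for C57BL/6 HD against sham at 4 hr and 0 to 1 for the strain difference. With the replicate block, 2 were called for the strain difference in sham glands (Krt5 and Krt14), and no other count of calls changed; the numbers do not pair the mice. The log2 fold changes of the 3 calls kept their sign under the alternatives run, where the next brightest probe set was the only other one used, while the third Trp63 probe set stood at 0.04 for HD against sham in BALB/c at 4 hr. Median centring changed no count.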

Other observations

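The 8 blood arrays, of cardiac blood from non-irradiated BALB/c and C57BL/6 mice, enter no comparison here. Their array medians were 4.61 to 4.70, against 6.16 to 6.36 on mammary arrays, so raw levels are not set against mammary levels. Mylk lay above the array median on all 8 at 1425506_at (7.27 to 8.22) and 1425505_at, and below it on all 8 at 1425504_at. Relative to the array median, 1425506_at ranged over 2.57 to 3.60 in blood and 2.64 to 3.65 on mammary arrays. Acta2 at 1416454_s_at ranged over 4.68 to 6.53 on the 8 arrays and lay above the array median on 7 of them. Oxtr ranged over 4.25 to 4.84 and lay above it on 2 of them. Krt5, Krt14, Trp63, Myh11 and Cnn1 lay below the array median on all 8 at every probe set.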
